A study of Mus musculus with 13 samples.

Results

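The Notch receptors and their canonical ligands were followed through age in cells sorted from mouse brain for Pdgfra, the surface receptor of oligodendrocyte progenitor cells (OPCs). The members were the 9 genes of the family, taken by symbol and matched to the gene identifiers of the count tables: 4 receptors (Notch1, Notch2, Notch3, Notch4) and 5 ligands (Dll1, Dll3, Dll4, Jag1, Jag2). They were 9 of 37785 genes in the tables, and each of the 9 passed the filter on low counts. Total RNA was sequenced in bulk from wild-type C57BL/6 brain at embryonic day 16 (E16, n = 3), postnatal day 12 (P12, 3 libraries), P80 (n = 3) and P310 (n = 4). The labels name no transgene or treatment, and beads that remove myelin were used before the sort at P80 and P310 only, so in comparisons of P12 with P80 or P310 age and this step cannot be told apart, while P80 and P310 shared it. In the age field of the labels, 2 of the P80 samples are a day older, and the P310 samples a few days younger, than in their titles.

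The 13 libraries held 8669521 to 25810455 counts, so that 3 counts, the upper limit that a count of 0 allows (counting error only), stood for 0.116 to 0.346 CPM (counts scaled to the library's total). P12 replicates 2 and 3 differed by a chi-square of 2.34 per degree of freedom over 16120 genes, against 16.6 to 179 for the other 14 pairs of replicates, and were summed and counted as 1 sample (P12 replicate 2-3), which leaves n = 2 at P12. Where the labels do not say that samples came from separate animals, p-values measure only the spread between these samples. The share of counts from mitochondrial genes ran from 1.52% to 34.4% and was highest at P310. Summed over 8 genes each, OPC markers held 341 to 405 CPM at E16, 514 to 572 at P12, 207 to 277 at P80 and 145 to 274 at P310, and immature neuron markers 4717 to 5501 CPM at E16 but 57.9 to 146 afterwards. Ptprz1, a receptor phosphatase, supplied 284 to 340 CPM of the OPC sum at E16, and the other 7 OPC markers held 56.7 to 82.8 CPM at E16, 259 to 269 at P12, 140 to 200.2 at P80 and 99.1 to 243 at P310, so that without Ptprz1 the sum was lowest at E16. Markers of endothelium, the inner lining of vessels (10 genes), held 45.6 to 72.3 CPM at E16, 4073 to 5244 at P12, 4547 to 5497 at P80 and 3705 to 6931 at P310. Flt1 led that sum, and the other 9 genes held 41.75 to 66.8, 3203 to 4017, 2442 to 2891 and 1982 to 3968 CPM at the 4 ages. Markers of mural cells, the pericytes and smooth muscle around vessels (10 genes), held 155 to 231, 897 to 1158, 1036 to 1341 and 786 to 1472 CPM. Mature oligodendrocyte markers set 2 samples apart, P12 replicate 1 at 7940 CPM and P310 replicate 2 at 67150 CPM, against 59.8 to 753 in the others. In such bulk samples, fewer cells of a type and less RNA per cell cannot be told apart.

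Notch receptors are single-pass membrane proteins that a ligand on a neighbouring cell activates. Pulling by the ligand exposes the receptor to ADAM proteases and then to the gamma-secretase complex, and the freed intracellular part joins the DNA-binding protein Rbpj and Mastermind-like coactivators to switch on Hes and Hey genes. In the embryonic brain, Dll1 on newly born neurons and intermediate progenitors holds neighbouring radial glia in the progenitor state through Hes1 and Hes5, and in the oligodendrocyte lineage Jag1 acting on Notch1 of progenitors is known to hold back differentiation. In vessels, Dll4 and Jag1 on endothelium act on Notch1 and Notch4 of endothelium and on Notch3 of mural cells to set tip and stalk cells, arterial fate and the muscular coat. Dll3 differs from the other ligands in that it stays largely inside the cell and does not activate receptors on neighbours.

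In GRCm38, the build of the tables, Notch1 (ENSMUSG00000026923) lies on the minus strand of chromosome 2 at 26457903-26516663, Notch2 (ENSMUSG00000027878) on the plus strand of chromosome 3 at 98013527-98150361, Notch3 (ENSMUSG00000038146) on the minus strand of chromosome 17 at 32120820-32166880, and Notch4 (ENSMUSG00000015468) on the plus strand of chromosome 17 at 34564268-34588503. Among the ligands, Dll1 (ENSMUSG00000014773) lies on the minus strand of chromosome 17 at 15367354-15376872, Dll3 (ENSMUSG00000003436) on the minus strand of chromosome 7 at 28293553-28302238, and Dll4 (ENSMUSG00000027314) on the plus strand of chromosome 2 at 119325784-119335962. Jag1 (ENSMUSG00000027276) lies on the minus strand of chromosome 2 at 137081456-137116644 and Jag2 (ENSMUSG00000002799) on the minus strand of chromosome 12 at 112907819-112929776. Counts were taken over exons without strand. For Dll1, 867 of 4219 exon bases (20.6%) are shared with the lincRNA A930024N18Rik on the other strand, which had 985 counts over all samples against 4773 of Dll1, so reads of the 2 genes cannot be fully told apart. Smaller stretches are shared by Notch1 with 0610009E02Rik (7.50% of its exon bases) and Gm13568 (2.91%), by Notch3 with Gm17276 (6.07%) and by Dll4 with Gm14207 (5.56%).

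The genomic sequence just before the start site is shown for the receptor and the Delta ligand that rose the most between E16 and P12 (Notch4, Dll4), for the ligand that led at E16 (Dll1, the second of 2 RefSeq start sites) and for the target gene with the deepest fall (Hes5), so that regulatory letters can be read beside the values. Sequences are from RefSeq on GRCm38.p6, written 5′ to 3′ on the gene's strand, and only bases outside the exons of the count annotation are printed. All 9 members had an entry in RefSeq's table of promoters. Capitals mark matches, on either strand, to 4 sets of letters chosen with these sequences already seen. They were GTGGGAA, the core bound by Rbpj, CANNTG, the E-box of basic helix-loop-helix factors, CCGGAA, a form of the ETS site, and GGGCGG, the GC-box. CCGGAA is longer than the GGAA core of ETS factors, which was not searched.
Dll4, chr2:119325534-119325783, plus strand: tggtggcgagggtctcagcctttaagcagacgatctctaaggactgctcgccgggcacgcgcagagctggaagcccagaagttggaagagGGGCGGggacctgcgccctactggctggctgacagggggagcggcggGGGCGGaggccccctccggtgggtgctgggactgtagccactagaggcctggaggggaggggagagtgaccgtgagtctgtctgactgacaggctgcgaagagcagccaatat
Notch4, chr17:34564045-34564267, plus strand: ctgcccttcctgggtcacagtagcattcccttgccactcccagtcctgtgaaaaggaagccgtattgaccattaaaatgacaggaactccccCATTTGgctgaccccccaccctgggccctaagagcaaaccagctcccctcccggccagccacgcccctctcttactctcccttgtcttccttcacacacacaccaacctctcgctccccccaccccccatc
Dll1, chr17:15376933-15377182, minus strand: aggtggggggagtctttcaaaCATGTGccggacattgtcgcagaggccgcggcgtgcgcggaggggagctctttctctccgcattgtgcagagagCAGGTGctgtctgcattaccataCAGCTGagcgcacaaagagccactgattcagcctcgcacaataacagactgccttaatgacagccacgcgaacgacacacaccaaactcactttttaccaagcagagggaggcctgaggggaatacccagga
Hes5, chr4:154960673-154960922, plus strand: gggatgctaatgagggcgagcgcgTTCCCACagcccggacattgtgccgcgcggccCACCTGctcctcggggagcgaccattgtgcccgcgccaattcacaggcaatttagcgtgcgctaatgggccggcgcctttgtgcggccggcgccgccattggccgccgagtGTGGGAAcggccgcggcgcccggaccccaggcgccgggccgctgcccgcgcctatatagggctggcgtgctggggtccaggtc

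The Dll4 stretch held 2 GC-boxes, whose first bases lie 160 and 113 bases before the start, and the Notch4 stretch held 1 E-box at 158. In the Dll1 stretch there were 3 E-boxes, at 229, 155 and 132, and no match to the other 3 sets. Hes5 held the Rbpj core on each strand (at 83 and 226), and 1 E-box at 194. Over the 10 windows of 250 bases before the members' start sites (Dll1 has 2), none held the Rbpj core or CCGGAA. Of all 32851 promoter windows of that length, 1779 (5.42%) held the Rbpj core and 3952 held CCGGAA. A window without CCGGAA can still hold the shorter ETS core. An E-box was in 5 of the 10 member windows (Dll1, Dll3, Jag1, Notch4) against 66.2% of all windows, and a GC-box in 6 of 10 (Dll3, Dll4, Jag2, Notch1, Notch2, Notch3) against 32.7%. In the Jag2 window the matches overlapped each other, and in the other windows no 2 matches did. A match says only that the letters are there.

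Between E16 and P12 the receptors other than Notch2 rose, by 1.81-fold to 35.1-fold. Among the ligands, Dll4, Jag1 and Jag2 rose by 10.9-fold to 28.6-fold while Dll3 fell. Dll1 was lower in both P12 samples than in every E16 sample, but its step did not pass the test. Of the 9 members 6 rose and 1 fell, where 16.7% of the 21170 genes tested were called higher and 10.5% lower (27.2% in all). Without overlap, 6 of the 9 were higher at P12 than at E16 and 2 lower, against 30.9% of all genes in each direction. The median log2 fold change of the members was 1.49, that of all genes 0.09. None of the 9 passed the test in a comparison of 2 postnatal ages, where at most 2.51% of all genes were called. Across all 4 ages 8 of 9 passed (all but Notch2), against 37.1% of all genes. Genes were called at an adjusted p under 0.05 in edgeR's quasi-likelihood test over all genes, and levels are CPM scaled by the trimmed mean of M-values.

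**Figure D1:**
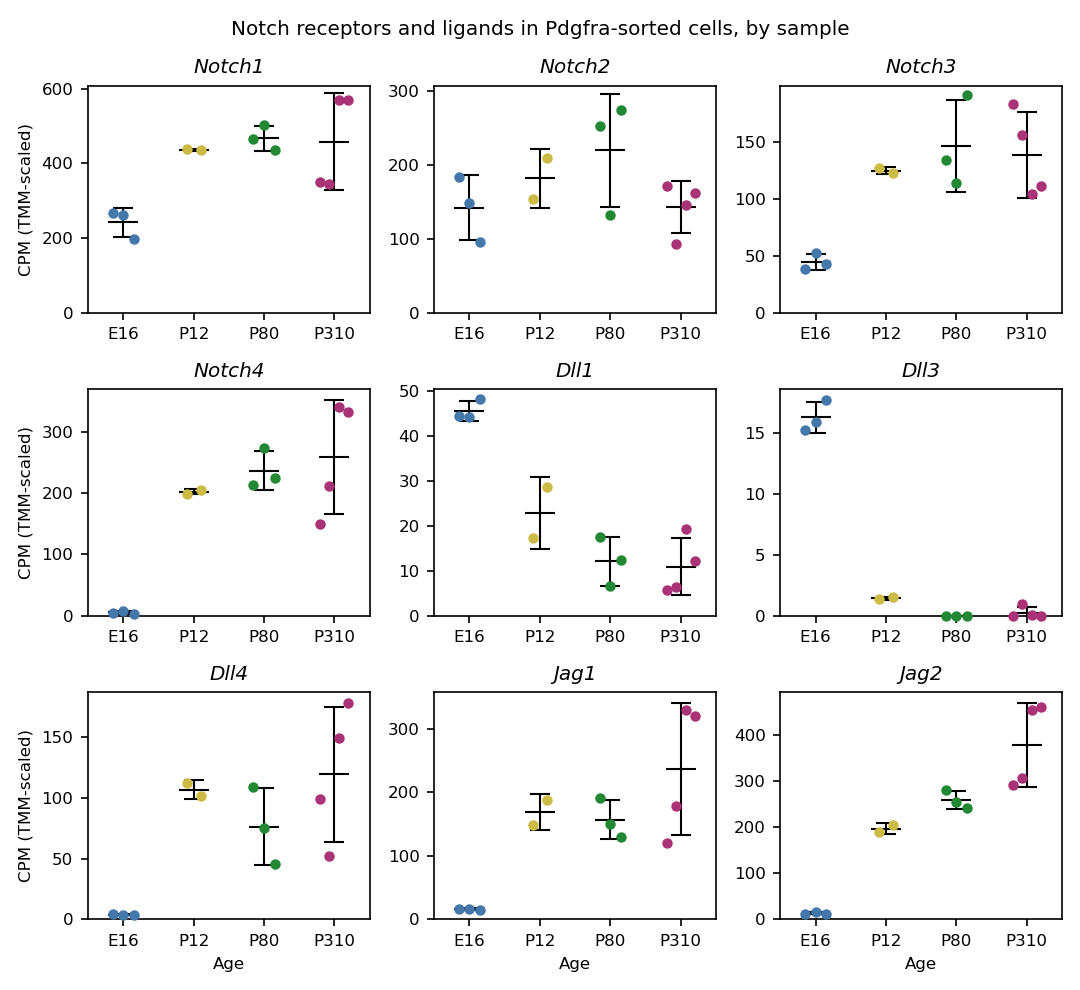
CPM of each receptor and ligand (vertical axes, each from 0) at E16, P12, P80 and P310 (horizontal axes); points are samples, the long bar is the mean and the whiskers 1 SD. Notch4, Dll4, Jag1 and Jag2 sat at 3.24 to 16.6 CPM at E16 and at 45.1 to 460.7 CPM in every postnatal sample, while Dll1 and Dll3 were highest at E16.

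Notch1, the receptor most often studied in neural progenitors and in endothelium alike, read 266.1, 262.4 and 197.2 CPM in the 3 E16 samples, 438.3 and 435.1 at P12, 464.4, 502.6 and 435.3 at P80, and 349.1, 344.5, 570.8 and 570.5 at P310. Every postnatal sample lay above the E16 samples on this scale, on which 30.9% of all genes were higher at P12 than at E16 without overlap. The P310 samples fell into a lower pair (replicates 1 and 2) and a higher pair (replicates 3 and 4). From E16 to P12 Notch1 rose by 0.85 on the log2 scale (SE 0.25, adjusted p = 0.0216). That call was lost without E16 replicate 3 (0.72, adjusted p = 0.0818) and without either P12 sample (adjusted p = 0.0846 and 0.0878), and over 23 alternatives the adjusted p ran from 0.0063 to 0.0878. On CPM from raw totals the P310 samples ran from 217 to 562 and overlapped the E16 samples (229 to 294), while the P12 samples (473 to 482) did not. Later steps were 0.10 (SE 0.26) from P12 to P80 and -0.03 (SE 0.22) from P80 to P310.

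Notch2, a broadly expressed receptor, had no step that passed the test. It read 183.7, 148.3 and 95.2 CPM at E16, 153.8 and 210.1 at P12, 253.0, 132.3 and 274.9 at P80, and 171.4, 92.8, 145.9 and 161.8 at P310. The 4 ages overlapped. Its log2 fold change was 0.35 (SE 0.35, adjusted p = 0.492) from E16 to P12 and -0.62 (SE 0.29, adjusted p = 0.871) from P80 to P310.

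Notch3, the receptor of mural cells, read 38.3, 52.1 and 43.0 CPM at E16, 126.8 and 122.6 at P12, 134.2, 113.9 and 191.4 at P80, and 183.2, 155.9, 104.0 and 110.9 at P310. No postnatal sample came down to the E16 range, while 30.9% of all genes were higher at P12 than at E16 without overlap. From E16 to P12 Notch3 rose by 1.49 on the log2 scale (SE 0.28, adjusted p = 0.00102), and the call held in 23 of 23 alternatives. At P310 replicates 1 and 2, the lower pair for Notch1, were the higher pair for Notch3.

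Notch4, a receptor known mainly from endothelium, had the steepest rise of the 9. The E16 samples read 5.0, 8.6 and 3.7 CPM, the P12 samples 199.0 and 204.7, the P80 samples 212.3, 272.8 and 224.0, and the P310 samples 149.9, 211.5, 340.1 and 332.2. The lowest postnatal sample was thus far above the highest embryonic one, where 30.9% of all genes were higher at P12 than at E16 without overlap. From E16 to P12 the log2 fold change was 5.13 (SE 0.39, adjusted p = 2.15e-07), and it passed in 23 of 23 alternatives. Both P12 samples were below every P80 sample, a step of 0.23 (SE 0.36, adjusted p = 0.937) in a comparison where 11.1% of all genes were higher without overlap.

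Dll1, the Delta ligand of embryonic neurogenesis, read 44.4, 44.3 and 48.3 CPM at E16, 17.3 and 28.7 at P12, 17.5, 6.5 and 12.5 at P80, and 5.8, 6.5, 19.4 and 12.2 at P310. The E16 samples stood above all others, and each postnatal age overlapped the next. The step from E16 to P12, -0.99 (SE 0.51, adjusted p = 0.169), did not pass, in a comparison where 30.9% of all genes were lower without overlap. It passed with limma-voom (-0.91, adjusted p = 0.0317) and with a fit to those 2 ages alone (-0.88, adjusted p = 0.0236). The test across all ages passed (adjusted p = 0.00318). A930024N18Rik, which shares exon bases with Dll1, had mean levels of 9.01, 4.53, 2.20 and 3.46 CPM at the 4 ages.

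Dll3, the ligand that does not activate neighbours, was the one member that fell from E16 to P12 and was at 0 at P80. Its counts were 212, 263 and 300 at E16, 22 and 71 at P12, 0 in each P80 sample, and 0, 9, 1 and 0 at P310. In CPM that was 15.3, 15.9 and 17.7 at E16 and 1.4 and 1.5 at P12. From E16 to P12 it fell by 3.49 on the log2 scale (SE 1.12, adjusted p = 0.0344). The call was lost without any 1 of the 3 E16 or 2 P12 samples (adjusted p from 0.0819 to 0.163), while the log2 fold change stayed between -3.56 and -3.43. With 3 counts over the P80 samples as the limit of detection (0.0784 CPM), that limit was 18.3-fold below the P12 mean and 208-fold below the E16 mean. These figures allow for counting error at P80 only, not for the spread between samples. The step from P12 to P80 did not pass (adjusted p = 0.0603, where 1.02% of all genes were called lower), and passed in 8 of 23 alternatives, among them that without P310 replicate 2 (adjusted p = 0.00438). At P310, 9 of the 10 counts came from replicate 2, and the step from P12 to P310 (-2.42, SE 1.03, adjusted p = 0.332) passed without that sample (-5.14, adjusted p = 0.0103), against 1.79% of all genes called lower.

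Dll4, the endothelial Delta ligand of tip cells and arteries, went the other way. It read 4.6, 3.4 and 3.2 CPM at E16, 112.6 and 101.3 at P12, 109.0, 75.1 and 45.1 at P80, and 98.98, 51.7, 149.4 and 178.4 at P310. All 9 postnatal samples were above the E16 samples, and they overlapped from age to age. Of all genes, 30.9% were higher at P12 than at E16 without overlap. From E16 to P12 the log2 fold change was 4.84 (SE 0.48, adjusted p = 4.56e-06). From P80 to P310 it was 0.65 (SE 0.37, adjusted p = 0.871).

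Jag1, the Jagged ligand with known roles in vessels and in oligodendrocyte differentiation, read 16.6, 15.8 and 14.1 CPM at E16, 148.8 and 188.6 at P12, 190.5, 150.3 and 130.3 at P80, and 120.8, 178.7, 329.3 and 320.8 at P310. It rose by 3.45 on the log2 scale from E16 to P12 (SE 0.36, adjusted p = 4.69e-06). Among the P310 samples, replicates 3 and 4 lay above every other sample of the series and replicates 1 and 2 lay within or just below the P12 and P80 range. The step from P80 to P310 was 0.60 (SE 0.30, adjusted p = 0.871).

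Jag2, the other Jagged ligand, was the member whose level went up at each of the 3 steps without overlap between ages. Samples read 10.6, 14.7 and 12.03 CPM at E16, 188.4 and 205.0 at P12, 280.8, 254.7 and 240.9 at P80, and 290.7, 307.7, 454.0 and 460.7 at P310. That pattern held for 24 of 21170 genes (0.113%). The first step was a rise of 3.98 on the log2 scale (SE 0.26, adjusted p = 3.97e-08). The next 2, 0.40 (SE 0.24, adjusted p = 0.700) and 0.55 (SE 0.20, adjusted p = 0.871), did not pass. From P12 to P310 the difference was 0.94 (SE 0.24, adjusted p = 0.0527), just outside the threshold in a comparison where 2.51% of all genes were called. It passed in 7 of 23 alternatives, DESeq2 (adjusted p = 0.00809), limma-voom (adjusted p = 0.00504) and leaving out P310 replicate 1 (adjusted p = 0.0319) or 2 (adjusted p = 0.0189) among them, and its adjusted p over the 23 ran from 0.00504 to 0.484. On CPM from raw totals the P310 samples ran from 194 to 454 and overlapped the P80 (234 to 327) and P12 samples (207 to 223). The scaling factor of P310 replicate 2, the sample with 67150 CPM of oligodendrocyte markers, was 0.631.

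**Figure D2:**
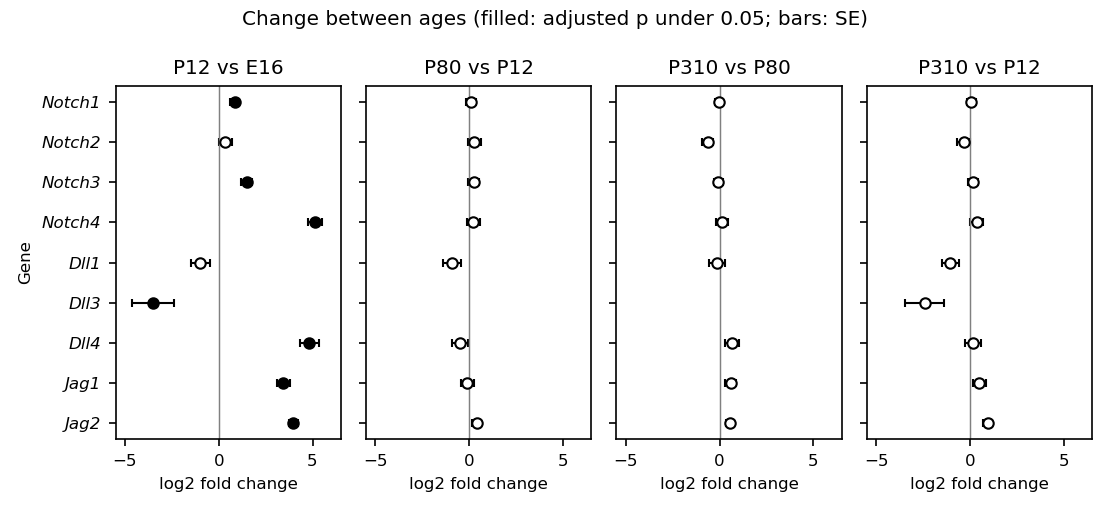
Log2 fold change (horizontal axes) of each member (rows) in the 4 comparisons of 2 ages, with SE as bars; filled points passed at an adjusted p under 0.05. In the first panel 7 of 9 points are filled and in the other 3 panels none is; Dll3 is not drawn against P80, where its count was 0.

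The steps after P12 were few over the whole transcriptome as well: 1.42% of genes were called from P12 to P80 and 0 of 21170 from P80 to P310 with edgeR, where 1162 genes had an unadjusted p under 0.05, DESeq2 called 28 and limma-voom 0. Among the members, Jag2 (0.0176) and Notch2 (0.0488) were 2 of those with an unadjusted p under 0.05 from P80 to P310, beside Dll3 (0.0211), which had no count at P80. Chance alone would put about as many of the 21170 genes under that threshold as the 1162 seen, and no member passed after adjustment. Without overlap, 2.27% of genes were higher and 2.59% lower in that comparison, and Jag2 was the 1 member there. From P12 to P310, 8.28% of genes were higher without overlap, again with Jag2 as the 1 member, and 11.6% lower, with Dll3.

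To compare genes with each other, levels were divided by exon length in kilobases (CPM per kb). On that scale Notch1 led at E16 with 17.0 ± 2.72 (SD, n = 3), followed by Notch2 at 13.2 ± 4.13 and Dll1 at 10.8 ± 0.536. The ranges of these neighbours overlapped. Dll3 (5.71 ± 0.444) and Notch3 (5.53 ± 0.875) came next and were not apart, and Jag1 (2.66), Jag2 (1.78), Dll4 (0.972) and Notch4 (0.713) were lowest, the last 2 with overlapping ranges. At P12 Notch1 (30.7), Jag1 (28.95), Jag2 (28.2) and Dll4 (27.8) followed each other with ranges that overlapped from each to the next, Notch4 (25.0) stood apart just below Dll4, and Dll1 (5.44) and Dll3 (0.504) were at the bottom. At P310 Jag2 led with 54.3 ± 13.2 (SD, n = 4), and Jag1 (40.7), Notch1 (32.2), Notch4 (32.1) and Dll4 (31.05) followed with ranges that overlapped from each to the next.

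The make-up of both receptors and ligands shifted at the first step. Notch1 and Notch2 together were 82.5 ± 3.87% (SD) of the summed receptors per kb at E16, 54.0 ± 1.77% at P12, 52.8 ± 3.46% at P80 and 47.6 ± 3.90% at P310. Notch4 went from 1.93% at E16 to 28.4% at P12, 29.3% at P80 and 33.1% at P310. Among the ligands, the Jagged genes made up 20.2 ± 1.90% at E16 (18.3% to 22.1%), 62.8 ± 2.76% at P12 (60.9% to 64.8%), 74.5 ± 5.16% at P80 (69.2% to 79.5%) and 74.4 ± 5.96% at P310 (69.8% to 83.0%). Dll1 alone went from 49.3% to 5.93%, 3.31% and 1.93%, Dll3 from 26.0% to 0.555% at P12, and Dll4 from 4.44% to 30.7%, 22.2% and 23.6%. Jag1 held 31.7%, 31.0% and 30.9% at the postnatal ages, and Jag2 31.1%, 43.5% and 43.5%. The summed receptors were 36.4 ± 6.92, 88.1 ± 3.66, 100.8 ± 6.21 and 94.8 ± 17.0 CPM per kb at the 4 ages, and the summed ligands 21.95 ± 0.622, 90.9 ± 6.37, 86.8 ± 17.2 and 128.8 ± 45.04. In all 3 E16 samples the ligand sum (21.4 to 22.6) was below the receptor sum (28.5 to 41.1), and at P12 the ranges overlapped (86.4 to 95.4 and 85.5 to 90.7).

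**Figure D3:**
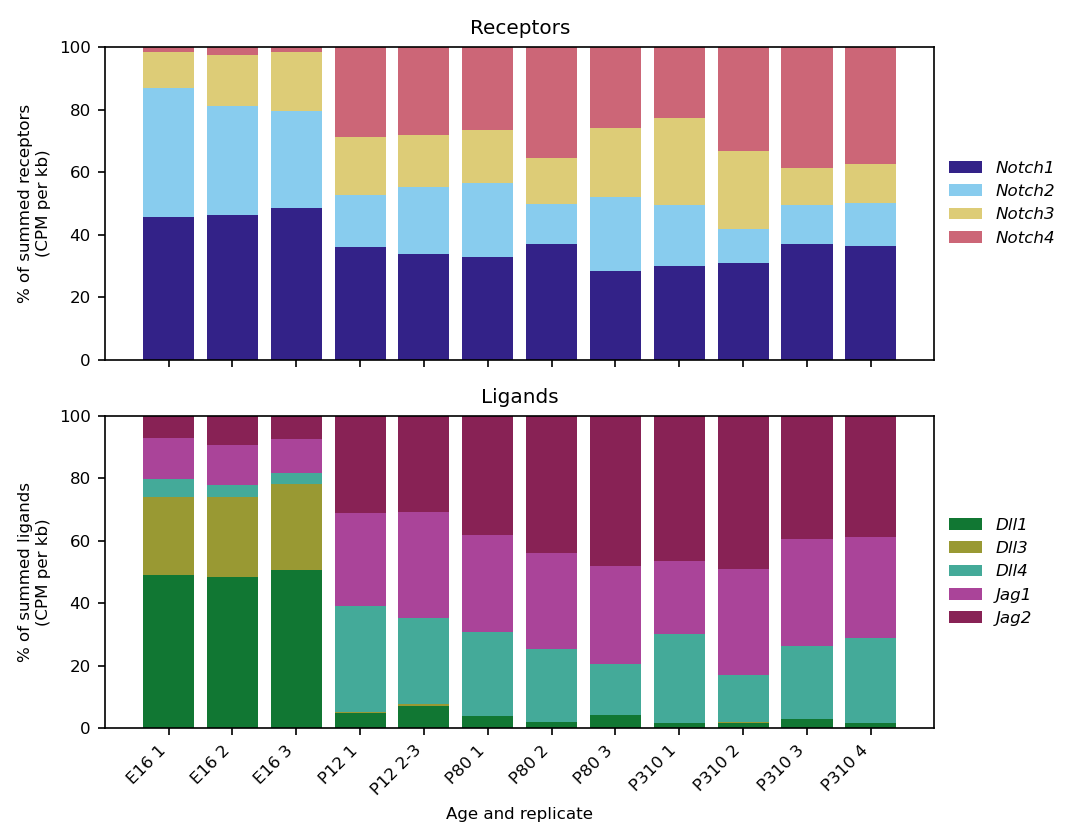
Share of each gene in the summed CPM per kb of receptors (top) and ligands (bottom), as a stacked bar of 100% for each of the 12 samples. Notch4 held 1.5% to 2.67% of the receptors in the E16 samples and 22.7% or more afterwards, and Dll1 with Dll3 gave way to Dll4, Jag1 and Jag2.

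Markers of vessel cells moved with the members that rose. All 10 endothelial markers and 8 of 10 mural markers rose from E16 to P12, Pecam1, an adhesion molecule of endothelium, from 4.98 ± 0.713 to 468 ± 29.1 CPM (6.55 on the log2 scale) and Pdgfrb, a receptor of mural cells, from 27.9 ± 8.66 to 94.0 ± 4.55 (1.75, adjusted p = 0.00074). No marker of either list was at 0 at any age. Per kb, Notch4 was 0.881 ± 0.298 of Pecam1 at E16 and 0.334 ± 0.0274, 0.355 ± 0.056 and 0.318 ± 0.0824 at P12, P80 and P310. Dll4 was 1.25 ± 0.435 of it at E16 and 0.369, 0.234 and 0.296 later, and Jag1 3.38 ± 0.678 and then 0.388, 0.325 and 0.399. For Jag2 the ratio was 2.23 ± 0.0828 at E16, 0.377 ± 0.0459 at P12, 0.452 ± 0.0734 at P80 and 0.546 ± 0.0866 at P310. The P12 and P310 samples did not overlap on it (0.345 to 0.410 and 0.450 to 0.641), but this depended on the reference gene. From P12 to P310 the endothelial marker Flt1 was called higher and Kdr lower, and per kb against Flt1 the Jag2 samples of these ages overlapped. Notch1 had the largest ratio to Pecam1 before birth, 21.6 ± 5.24, and held 0.409, 0.399 and 0.321 after it. Notch3 had a ratio to Pdgfrb of 1.12 ± 0.235, 0.905 ± 0.0649, 1.06 ± 0.364 and 1.21 ± 0.165. Other cell types moved as well: 7 of 8 astrocyte and 8 of 8 microglia markers rose from E16 to P12, with astrocyte sums of 276 to 325, 2389 to 2888, 1150 to 1709 and 653 to 1406 CPM and microglia sums of 79.5 to 113, 875 to 927, 331 to 1118 and 267 to 1058 CPM at the 4 ages. All 6 ependymal and choroid plexus markers and 3 of 6 fibroblast markers rose too. Ependymal and choroid sums were 90.0 to 158, 872 to 5500, 912 to 5266 and 571 to 6240 CPM. Most of that was Ttr, and the other 5 genes held 11.9 to 14.7, 58.9 to 235, 132.5 to 298 and 113 to 334 CPM. Fibroblast sums were 299 to 328, 637 to 1172, 184 to 373 and 165 to 348 CPM. The part of vessel cells and of these cells in the members' changes was not tested.

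Within P310 the same samples were high together. Replicates 3 and 4 read the highest endothelial sums of that age (6931 and 5912 CPM) and the highest Notch1, Notch4, Dll4, Jag1 and Jag2, and replicates 1 and 2 the highest mural sums (1472 and 1190 CPM against 891 and 786) and the highest Notch3. Replicate 1, with 5394 CPM of endothelial markers, had the lowest Notch4 and Jag1 of the 4 all the same. The spread of these members at P310 (SD 93.3 CPM for Notch4, 104 for Jag1, 91.6 for Jag2) was larger than at P80 (32.1, 30.7 and 20.3). Other values split the P310 samples in the same way. The mitochondrial share was 34.4% and 29.1% in replicates 1 and 2, against 18.3% and 24.5% in replicates 3 and 4. Scaling factors were 0.8745 and 0.631 against 0.9821 and 0.9854, and OPC sums 267.3 and 273.7 CPM against 144.5 and 151.6. By the age field, replicates 1 and 2 were also younger than replicates 3 and 4. The part of each of these, and of vessel cells, in the split was not tested.

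**Figure D4:**
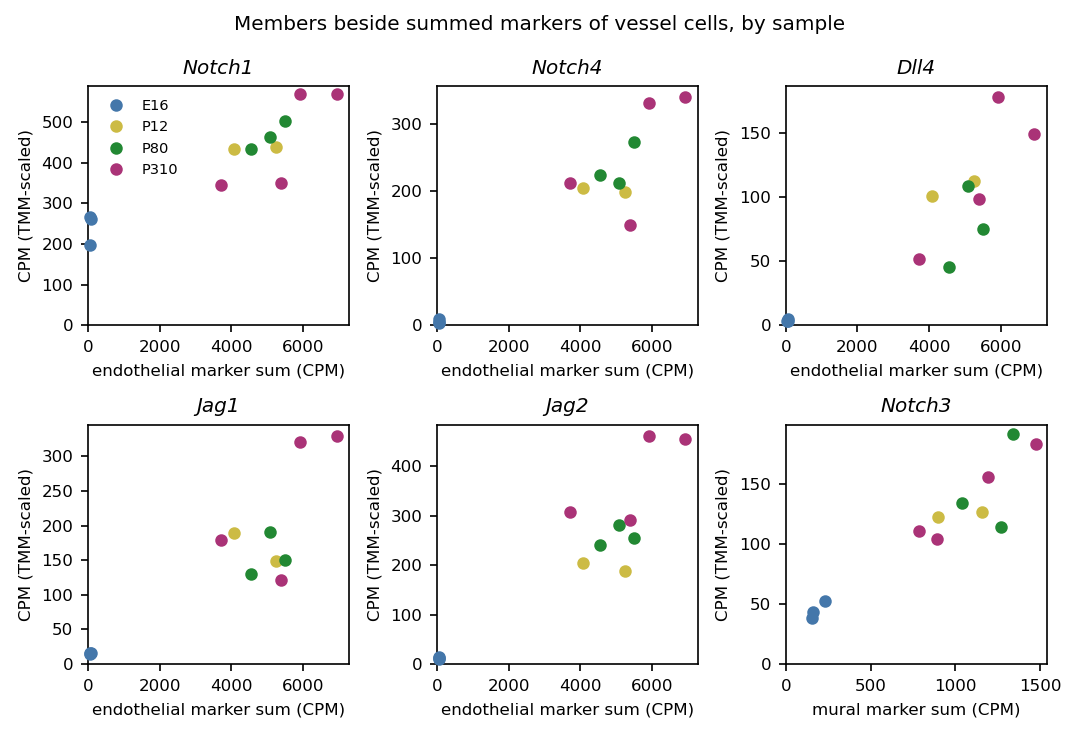
CPM of 5 members against the summed CPM of endothelial markers, and of Notch3 against mural markers, with 1 point per sample coloured by age. E16 samples lie near 0 on the horizontal axis at 45.6 to 72.3 CPM (endothelial) and 155 to 231 CPM (mural), with Notch1 already at 197 to 266 CPM there.

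Dll1 and Dll3 were highest at E16, as were the markers of immature neurons, all 8 of which fell from E16 to P12. Dcx, a microtubule protein of migrating neurons, went from 916 ± 134 to 23.0 ± 8.76 CPM, a fall of 5.31 on the log2 scale (adjusted p = 3.87e-07). Per kb, Dll1 was 0.152 ± 0.0253 of Dcx at E16 and 3.01 ± 0.101 of it at P12. Among 8 genes of radial glia and intermediate progenitors, Eomes, Neurog2, Sox1 and Hes6 fell and Prom1 rose. Pdgfra itself, the target of the sort, was at 33.0 ± 6.96, 70.2 ± 33.2, 37.1 ± 18.4 and 30.7 ± 25.8 CPM at the 4 ages and did not pass from E16 to P12 (1.09, SE 0.64, adjusted p = 0.242). The part of neuronal RNA in the levels of Dll1 and Dll3 was not tested.

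The other genes of the pathway, 41 in 7 lists by role, were split at the first step. From E16 to P12 10 rose and 8 fell, where 16.7% of all genes were called higher and 10.5% lower. Their median log2 fold change was 0.09, the same to 2 decimals as that of all genes. None of the 41 passed between postnatal ages, where at most 2.51% of all genes were called in any comparison. Across all 4 ages 22 of 41 passed (14 without E16 replicate 1), against 37.1% of all genes. The 8 that fell were 3 without E16 replicate 1, 2 without P12 replicate 1, 4 without P12 replicate 2-3 and 3 without P12 replicate 1 and P310 replicate 2. The lists were drawn up with earlier results of these data known.

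Upstream of the receptors, the glycosyltransferases of the Fringe family, which tune the choice between Delta and Jagged ligands, went apart. Lfng rose from 15.9 ± 1.08 to 59.6 ± 3.76 CPM (1.91, SE 0.31, adjusted p = 2.68e-04), Rfng fell from 57.8 ± 7.72 to 31.8 ± 5.69 CPM (-0.86, SE 0.27, adjusted p = 0.0296), and Mfng read 23.0 and 27.0 CPM and did not pass. Of the 4 ubiquitin ligases that drive ligand endocytosis (Mib1, Mib2, Neurl1a, Neurl1b), none passed. In the list of 9 cleavage genes 4 rose and 1 fell. Furin, which cleaves the receptor during its maturation, went from 29.3 ± 5.90 to 119.5 ± 13.3 CPM (2.03, adjusted p = 1.65e-05) and the protease Adam17 from 23.5 ± 3.08 to 63.6 ± 8.03 CPM (1.44). The ligand-dependent protease Adam10 rose too (1.16), as did Psen2 (1.47), a catalytic subunit of gamma-secretase, while its subunit Aph1b fell by 1.41.

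In the nucleus, Rbpj, the DNA-binding partner that all 4 receptors share, fell from 128.9 ± 6.91 CPM to 48.0 ± 7.45 between E16 and P12 (-1.43, SE 0.31, adjusted p = 0.00335) and was at 39.0 ± 3.67 and 34.9 ± 11.3 CPM at P80 and P310. The coactivator Maml2 rose (0.91) and the corepressor Spen fell by 0.84. Among 6 target genes 2 rose and 1 fell. Hes5, the target that marks Notch activity in neural progenitors, read 63.1, 57.7 and 98.9 CPM at E16, 4.8 and 9.97 at P12, 4.4, 4.9 and 5.1 at P80, and 5.1, 4.1, 2.8 and 1.2 at P310. No postnatal sample came near the E16 range, and the fall of 3.30 to P12 passed (SE 0.54, adjusted p = 3.34e-04). Of all genes, 30.9% were lower at P12 than at E16 without overlap. Hey2, a target in arteries and heart, went from 3.61 ± 1.31 to 18.7 CPM (2.37, SE 0.44, adjusted p = 8.50e-04) and Heyl, a target in vascular smooth muscle, from 7.87 ± 3.02 to 27.0 ± 2.51 (1.77, SE 0.41, adjusted p = 0.00497). Hey1 (1.25, SE 0.46, adjusted p = 0.0582) missed the threshold, with 36.7 and 37.9 CPM at P12 against 13.2 to 19.2 at E16. Hes1 was at 15.3 ± 3.54, 16.9 ± 3.60, 16.6 ± 4.25 and 16.9 ± 4.51 CPM (0.14, SE 0.37, adjusted p = 0.815).

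Of the genes that restrain or turn over the receptor, Numb, the endocytic inhibitor, rose from 19.8 ± 1.39 to 71.5 ± 6.66 CPM (1.85, SE 0.22, adjusted p = 1.73e-05), while its relative Numbl (-1.45) and the ubiquitin ligase Dtx1 (-1.01) fell. Among 4 non-canonical ligands, Egfl7, a secreted protein of endothelium, went from 2.78 ± 0.738 to 256 ± 12.8 CPM (6.52, SE 0.32, adjusted p = 6.07e-09) and on to 439 ± 48.6 and 467 ± 128 at P80 and P310, and Dner, a neuronal transmembrane ligand, fell by 1.47 (adjusted p = 0.0183).

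**Figure D5:**
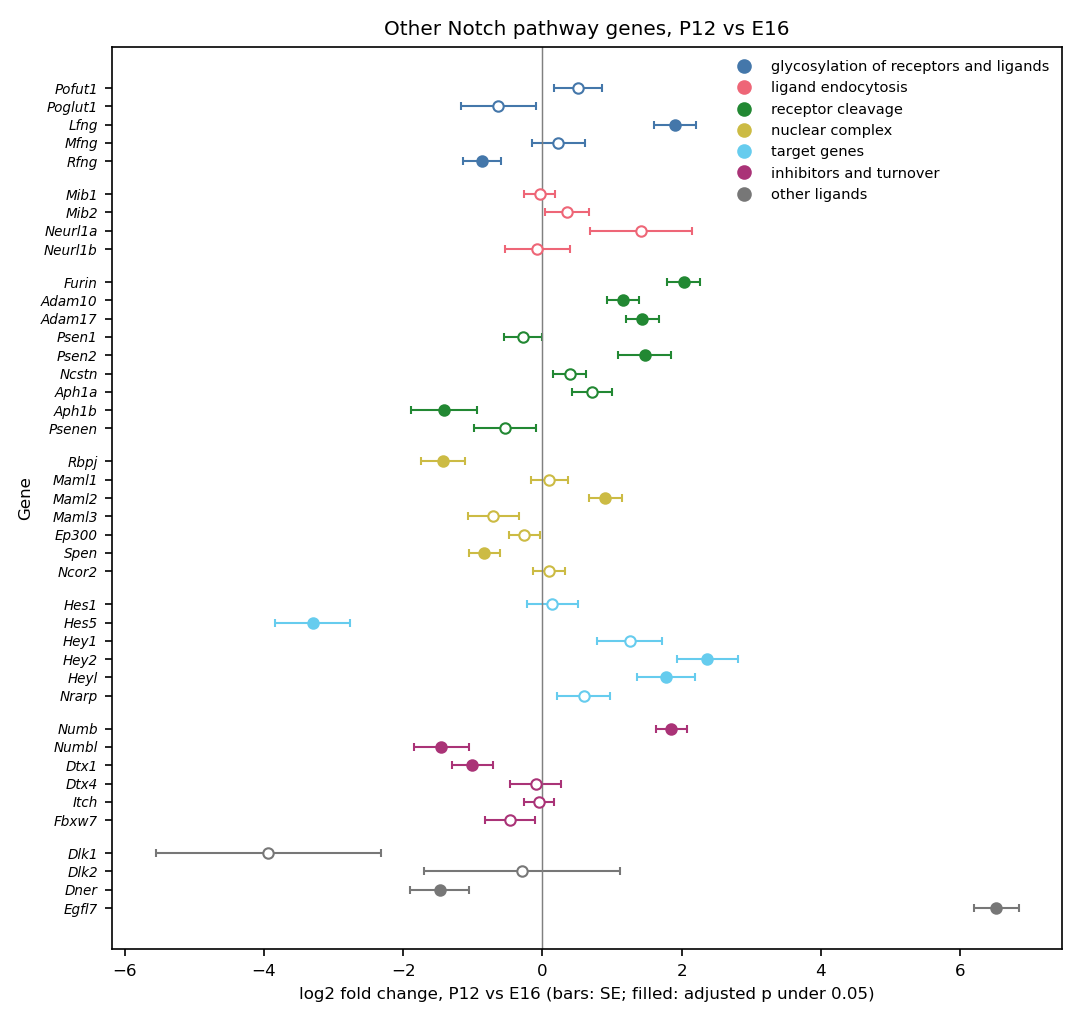
Log2 fold change from E16 to P12 (horizontal axis, bars are SE) of the 41 other pathway genes, grouped by role from glycosylation to other ligands; filled points passed at an adjusted p under 0.05. Hes5 (-3.30) and Egfl7 (6.52) mark the ends among those that passed.

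Over the 9 postnatal samples, the 2 protein-coding genes most like each member among 11981 searched were found by Pearson's r on log2 levels, as a description: the points share libraries, depth and the sort. With 11981 genes searched over 9 samples, high values of r arise from the search alone, and none was tested. Spearman's rank correlation of the same pairs, Dll3 aside, ran from 0.767 (Nos3) to 0.95 (Card10). For Notch4 they were Card10 (r = 0.951) and Nos3 (0.947), the nitric oxide synthase of endothelium, and for Jag1 Synpo (0.972) and the Notch target Hey2 (0.946). Jag2 was most like Ptprm (0.967), a receptor phosphatase of endothelial junctions, and Uvrag (0.965). Dll4 stood with Aimp2 (0.947) and Mrtfb (0.946), a coactivator of serum response factor, and Notch1 with Atg9b (0.990) and Klf3 (0.956). Notch2 was most like Npr3 (0.970), the natriuretic peptide clearance receptor, and Mrc2 (0.961), a collagen receptor, Notch3 like Cacnb2 (0.957) and Cds1 (0.943), and Dll1 like Lrig2 (0.942) and Gpr161 (0.937). Dll3, at a mean of 0.439 CPM in these samples, was too sparse for a likeness to be read.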

How the data were processed

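The deposited values are raw read counts per gene and sample, made by the authors with featureCounts 1.5.0-p1 on exons of Ensembl release 92 (GRCm38), per the file headers. Reads that overlap several genes or map to several places were counted for each, where at least 10 bases overlapped, and strand was not used. Reads were trimmed with Trim Galore and aligned with TopHat2 2.1.1, per the submitters' processing notes. Of 37785 identifiers 37715 had a symbol in the name table and 70 had none.

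P12 replicates 2 and 3 were summed. The 12 samples of all ages entered 1 fit (R 4.3.3, edgeR 4.0.16, filterByExpr by age, TMM scaling, robust quasi-likelihood F test, Benjamini-Hochberg adjustment over 21170 genes, threshold 0.05, common biological coefficient of variation 0.513). The SE is the coefficient divided by the root of F. DESeq2 1.42.0, limma 3.58.1 (voom with quality weights), other scalings and filters, a fit to 2 ages, a replicate block and leaving out each sample were alternatives, and a fit without P12 replicate 1 and P310 replicate 2 was chosen after seeing the data. Figures used Python 3.11.15, pandas 2.3.3, numpy 2.4.6 and matplotlib 3.10.9. On simulated data with 100 genes changed 4-fold and 100 changed 8-fold, the test called 26% and 47% of them for P12 against E16. It made 3 false calls there, with 21170 genes in the run. Between postnatal ages it called 27% to 39% of the 4-fold changes and 52% to 60% of the 8-fold changes. Smaller changes were not simulated.

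The members and all gene lists were chosen with earlier results of these data known. Named were all 9 members, per role list up to 2 called genes in each direction by adjusted p with at least 5 CPM in the higher group, Hes1, Hes5, Hey1, Rbpj, 4 marker genes (Pdgfra, Pecam1, Pdgfrb, Dcx), and 2 genes of likeness per member. Mfng, Adam10, Psen2, the 5 progenitor markers named and the genes that overlap members were named after their values were seen. Promoter bases are from RefSeq (GRCm38.p6). Protein sequences were not used here.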

Additional observations from a re-analysis of the deposited data

Results flagged for a closer look

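At P310, Dll3 had 0, 9, 1 and 0 counts in the 4 replicates (0, 0.990, 0.0892 and 0 CPM). Replicate 2 stood apart from the others, with a gap to the next sample of 0.91 of the whole range, above Dixon's 95% critical value for 4 samples. That sample also held 67150 CPM of mature oligodendrocyte markers. For normally spread values chance flags about 1 in 20 groups, but that rate does not hold for counts at or near 0 such as these. Only groups of 4 samples, those of P310, were checked. The part of the sample's make-up in this value was not tested.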

How the results depend on the processing

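For P12 against E16, the 6 members called higher were 5 to 6 and the 1 called lower (Dll3) was 0 to 1 when any 1 sample was left out, and 2 were called lower with limma-voom and with only the 2 ages compared. The 5765 genes called there became 3748 without P12 replicate 2-3 (3748 to 6553 over the samples left out). From P12 to P80, 301 genes became 877 with no low-count filter, 637 with DESeq2, 490 with limma-voom, 521 with P12 replicates 2 and 3 kept apart and 169 without P12 replicate 1 and P310 replicate 2 (chosen after seeing the data), and 71 to 446 with 1 sample left out: 71 without P12 replicate 1, 191 without P80 replicate 1 and 151 without P80 replicate 3. In those first 5 alternatives 1 member was called lower (Dll3), against 0 to 1 with 1 sample left out. From P80 to P310, 0 genes became 423 with no filter, 28 with DESeq2 and 0 to 1 with 1 sample left out. From P12 to P310, 531 genes became 1285 with no filter, 1065 with DESeq2, 947 with limma-voom, 173 with only the 2 ages, 1012 with replicates kept apart, 247 without the 2 samples and 158 to 683 with 1 left out (158 without P12 replicate 1). There, 1 member was called higher (Jag2) at 1 CPM in 3 samples, with DESeq2, with limma-voom, without mitochondrial, ribosomal and haemoglobin genes and with replicates kept apart (0 to 1 with 1 sample left out), and 1 was called lower (Dll3) with limma-voom and without the 2 samples (0 to 1 with 1 left out). On raw totals the summed receptors at P12 were 96.3 CPM per kb and the summed ligands 24.7 at E16 and 99.4 at P12. The cause of these differences was not tested. No step of a member that passed the test changed direction in any alternative. Among steps that did not pass, 8 changed sign in 25 cases, none called (adjusted p of 0.938 or more). With 1 sample, or P12 replicate 1 and P310 replicate 2, left out, log2 fold changes ran from -0.27 to 0.073 for Jag1 from P12 to P80, from -0.15 to 0.083 for Notch1, -0.25 to 0.13 for Notch3, -0.031 to 0.32 for Notch4 and -0.57 to 0.20 for Dll1 from P80 to P310, and from -0.051 to 0.23 for Notch1, -0.011 to 0.27 for Notch3 and -0.095 to 0.50 for Dll4 from P12 to P310. With limma-voom they were 0.15 for Notch1 from P80 to P310 and -0.080 for Notch3 from P12 to P310.

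Replicate numbers did not pair the samples: of 15 same-number pairs, 1 had a correlation of deviations over 0.1 (range -0.184 to 0.116). With the number as a replicate block, 5368 genes were called for P12 against E16, 243 for P80 against P12, 0 for P310 against P80 and 392 for P310 against P12, and no call of a member changed. Steps that had not passed turned to 0.0076 for Notch3 and -0.033 for Notch4 from P80 to P310, and to -0.084 for Notch1 and -0.14 for Dll4 from P12 to P310. Depth limits the reading of Dll3 after birth (93, 0 and 10 counts at the 3 ages) more than that of the other members.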
